A study of Mus musculus with 6 samples.

Results

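The TRIM genes, which encode tripartite motif proteins, were compared between mouse embryonic fibroblasts that carried a hairpin against ARF (shARF) and fibroblasts that carried a scrambled hairpin (shSCR). ARF is a tumour suppressor made from an alternative reading frame of Cdkn2a, and the comparison asks how transcripts differ when that gene is knocked down. Both groups were fibroblasts that the labels call dp53R, the sample titles of both also carry the word Ras, and the labels give neither the age of the embryos nor the strain. There were 3 shARF arrays and 3 shSCR arrays, each from total RNA that had been amplified from a small input and hybridised to an Affymetrix gene-level array. Replicates are given as biological, with no word on what was replicated (cultures, embryos or extractions), so a p-value covers only the spread among these arrays, and that spread may be technical. A gene counted as a member when a probeset with a single gene symbol carried a symbol made of Trim and a digit. This gave 58 genes of the 19288 genes with such a probeset, each with 1 probeset.

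TRIM proteins share a RING domain, B-box domains and a coiled coil at the amino-terminal end, and most act as ubiquitin E3 ligases, which take ubiquitin from a conjugating (E2) enzyme and place it on a substrate. They are classed by what follows at the carboxy-terminal end: a PRY-SPRY domain in the largest class, or NHL repeats, a PHD finger with a bromodomain, a COS box, or another domain. Many PRY-SPRY members are known as antiviral factors whose genes are induced by interferon, whereas the PHD-bromodomain members are nuclear cofactors of transcription.

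Signals are deposited intensities after robust multi-array averaging on a linear scale, and differences are given as log2 signal in shARF minus log2 signal in shSCR. Cdkn2a, the gene targeted by the hairpin, had signals of 315, 254 and 286 on the shARF arrays, against 535, 539 and 516 on the shSCR arrays, a difference of -0.90 ± 0.086 (SE, n = 3 arrays each, limma adjusted p = 0.00459). Its probeset stands for the whole gene, so transcripts for ARF and for p16 are not told apart. Median signals per array were 41.97 to 42.86 in shARF and 42.30 to 42.45 in shSCR. All 10 fibroblast markers were above the detection level, and their summed signal was 23975 to 24670 in shARF and 22188 to 23835 in shSCR. Single fibroblast markers went both ways without passing. For example, Dcn (0.71 ± 0.160) lay higher on every shARF array, and Thy1 (-0.38 ± 0.097) and Pdgfra (-0.22 ± 0.075) lay lower. Of 7 macrophage markers, 5 (Csf1r, Ptprc, Itgam, Lyz2 and Adgre1) were below the detection level on all 6 arrays. The 7 summed to 167 to 192 in shARF and 169 to 198 in shSCR. Cd68 (-0.36 ± 0.101) lay lower on every shARF array without passing, and the groups overlapped for Cd14 (0.12 ± 0.111). Among markers of other cell types, Krt18 of epithelium (0.93 ± 0.176) and Nefl of neurons (1.26 ± 0.135) were higher in shARF (SE, n = 3 arrays each, limma adjusted p = 0.0370 and 0.00639), and the part of these markers in the TRIM values was not tested. Other markers of these lists went both ways without passing. Krt8 (0.74 ± 0.164) and Map2 (0.31 ± 0.083) lay higher on every shARF array. Krt19 (-0.20 ± 0.071) and Tubb3 (-0.52 ± 0.151) lay lower on every shARF array. The 5 epithelial markers summed to 498 to 628 in shARF and 423 to 444 in shSCR.

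A signal was taken as detected when it exceeded the 25th percentile of its array, which lay between 14.1 and 14.9, and a gene was tested when it was detected on at least 3 of the 6 arrays. Of the 58 TRIM genes, 47 passed. Over all 15145 genes tested, limma with Benjamini-Hochberg adjustment over every tested probeset called 4.01% at an adjusted p under 0.05, 1.62% higher and 2.38% lower in shARF. Among the 47 TRIM genes, 3 were higher in shARF (6.38%), none was lower, and 44 did not pass. The 3 were Trim12c, Trim21 and Trim34a, all PRY-SPRY genes on chromosome 7. Before adjustment, the limma p was under 0.05 for 5 TRIM genes that were higher and 2 that were lower. The share of all genes tested at this unadjusted threshold was not computed, so no excess or lack is read from it. The groups did not overlap in 28.6% of all genes tested, and in 8 of the 47 TRIM genes (17.0%), 6 higher and 2 lower. These counts describe the members that passed the detection filter, which a dim gene can pass through its higher group alone.

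**Figure D1:**
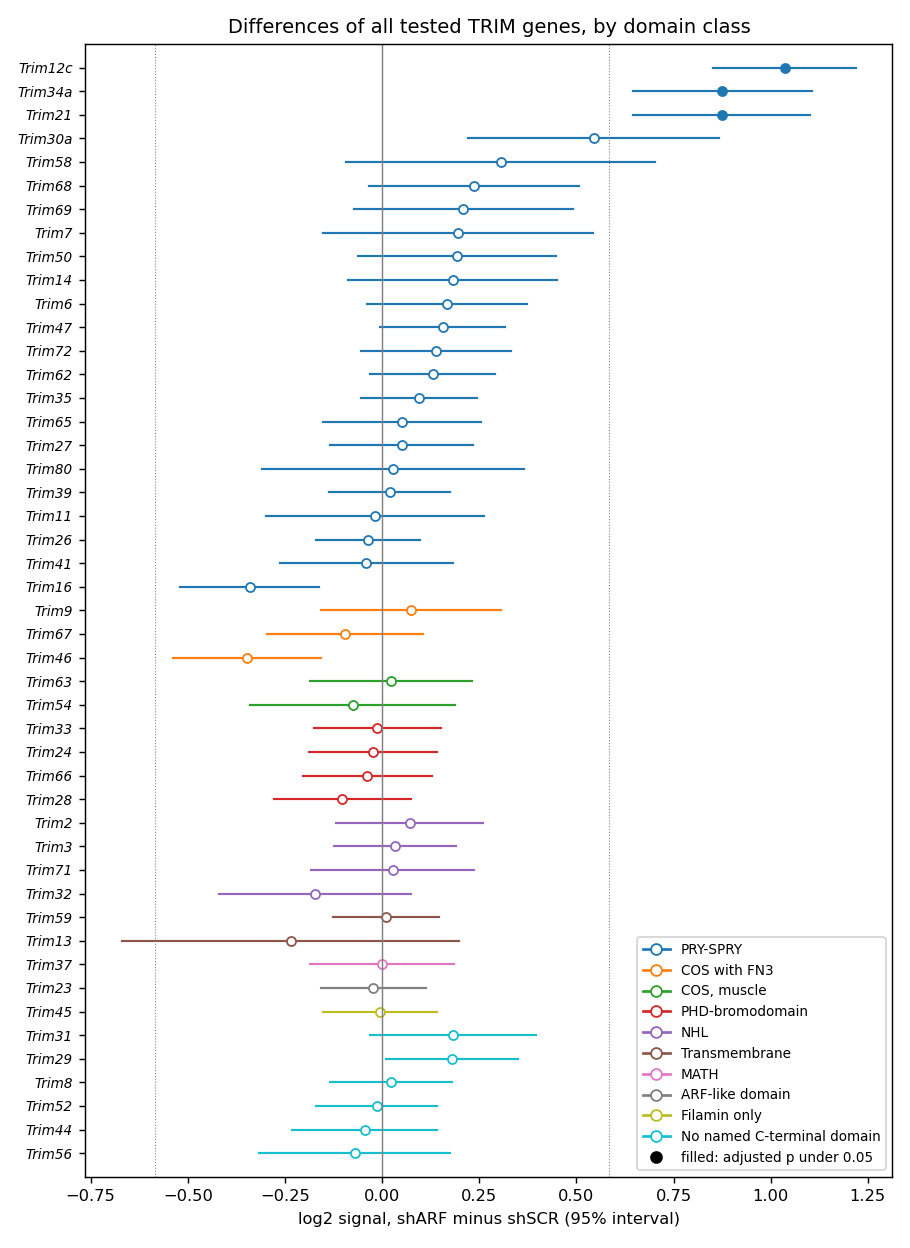
The log2 difference (shARF minus shSCR) of each of the 47 tested TRIM genes with its 95% interval, grouped by domain class, with dotted lines at a 1.5-fold change. Trim12c, Trim21 and Trim34a stand at 0.87 to 1.04 with intervals above 0.64, and the other 44 genes lie between -0.35 and 0.54.

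The promoters of the 3 called genes are shown because each holds a match to a known sequence feature of interferon-responsive genes. The window of 250 bases before to 50 bases after each RefSeq start site (GRCm38.p6) was searched on both strands for GAAANNGAAA, the spacing of the GAAA repeats in the interferon-stimulated response element that IRF and STAT factors bind. Capitals mark the letters that match on either strand (TTTCNNTTTC where the match is on the opposite strand), and each sequence runs 5′ to 3′ in the direction of its gene.
Trim12c, chr7:104353300-104353599, minus strand: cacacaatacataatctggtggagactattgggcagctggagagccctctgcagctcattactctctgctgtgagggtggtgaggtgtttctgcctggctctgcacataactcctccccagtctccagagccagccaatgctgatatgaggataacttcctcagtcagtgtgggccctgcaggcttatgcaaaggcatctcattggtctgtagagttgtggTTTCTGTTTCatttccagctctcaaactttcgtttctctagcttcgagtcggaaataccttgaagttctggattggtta
Trim21, chr7:102565433-102565732, minus strand: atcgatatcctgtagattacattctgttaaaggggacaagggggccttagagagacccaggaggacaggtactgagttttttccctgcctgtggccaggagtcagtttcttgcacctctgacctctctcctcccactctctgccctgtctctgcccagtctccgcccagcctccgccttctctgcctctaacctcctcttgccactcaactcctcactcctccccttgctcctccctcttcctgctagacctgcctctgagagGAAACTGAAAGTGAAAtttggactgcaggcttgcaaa
Trim34a, chr7:104244207-104244506, plus strand: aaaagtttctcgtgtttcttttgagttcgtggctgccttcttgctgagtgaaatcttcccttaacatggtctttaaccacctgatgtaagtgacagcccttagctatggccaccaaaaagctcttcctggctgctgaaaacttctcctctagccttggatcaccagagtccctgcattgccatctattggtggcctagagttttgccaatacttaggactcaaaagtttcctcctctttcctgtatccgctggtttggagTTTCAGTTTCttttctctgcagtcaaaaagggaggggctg
The match in Trim12c began 29 bases before the start site (offset -29), the 2 overlapping matches in Trim21 at offsets 13 and 19, and the match in Trim34a at offset 10.

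For comparison, shorter stretches around the match are given for Trim30a and Trim12a of the same chromosome 7 cluster, and for Trim26 and Trim2, 2 measured genes outside it that had a match and were not called.
Trim30a, chr7:104446089-104446148, minus strand: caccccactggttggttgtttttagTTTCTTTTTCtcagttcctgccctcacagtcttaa
Trim12a, chr7:104315451-104315510, minus strand: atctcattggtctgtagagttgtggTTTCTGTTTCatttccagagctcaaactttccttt
Trim26, chr17:36836961-36837020, plus strand: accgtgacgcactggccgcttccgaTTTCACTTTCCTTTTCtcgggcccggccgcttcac
Trim2, chr3:84212789-84212835, minus strand: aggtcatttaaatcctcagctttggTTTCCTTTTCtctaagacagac
The stretch of 60 bases of Trim12a was identical to Trim12c at 57 bases. A match stood in 8 of the 45 TRIM genes that had a RefSeq promoter window (17.8%), against 1079 of all 27025 genes (3.99%). Besides those shown, the 8 include Trim30d. Trim12a and Trim12c are close copies, as are Trim30a and Trim30d, so the 8 are not independent of each other. A second window of Trim30a also held a match, at offset -36. All 3 called genes had a match, as did 3 of the 34 tested genes with a window that were not called (8.82%). Members were chosen with earlier results of these data known, and Trim12c and Trim34a lie in the same cluster, so this split is not a test. Trim6, Trim56 and Trim38, which are on the interferon-linked list described below, had a window without a match. A match describes letters in the window and does not show that a factor binds there.

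Trim12c is one of the mouse relatives of the human retrovirus restriction factor TRIM5. Its signals were 97.3, 103 and 103 on the shARF arrays, against 52.7, 44.7 and 50.8 on the shSCR arrays. Every shARF array was well above every shSCR array, with means of 101 ± 3.29 in shARF and 49.4 ± 4.20 in shSCR (SD, n = 3 each). The difference was 1.04 ± 0.078 (SE), or 2.05-fold, with a 95% interval of 0.85 to 1.22 (limma adjusted p = 0.00225), the largest among the TRIM genes tested. It passed in every one of 15 alternative analyses, some of which could change its adjusted p but not its difference. All of them read the single-symbol probeset only. Probesets that carry the symbol Trim12c beside those of its copies gave smaller differences of 0.52 and 0.42. The second of these did not pass (limma adjusted p = 0.129).

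Trim21 encodes a cytosolic receptor for the Fc part of antibodies, which marks antibody-coated viruses for the proteasome. Its signals were 91.0, 97.6 and 98.9 in shARF, against 46.6, 59.7 and 51.3 in shSCR. The groups did not overlap, and shSCR array 2 was the highest of its group. The means were 95.8 ± 4.23 in shARF and 52.5 ± 6.61 in shSCR (SD, n = 3 each). The difference was 0.87 ± 0.097 (SE), or 1.83-fold, with a 95% interval of 0.65 to 1.10 (limma adjusted p = 0.00739), and it passed in the same 15 alternatives.

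Trim34a lies close to Trim12c on chromosome 7 and is known as an interferon-induced gene. Its signals were 30.9, 36.6 and 32.7 in shARF, against 20.0, 18.3 and 16.3 in shSCR, where they lay close to the detection level. The means were 33.4 ± 2.92 in shARF and 18.2 ± 1.86 in shSCR (SD, n = 3 each). The groups did not overlap, with a difference of 0.88 ± 0.098 (SE), a 95% interval of 0.64 to 1.11 and a limma adjusted p of 0.0075. The difference was 0.53 when 16 was added to each signal before the logarithm. The call was lost when array 2 of both groups was left out (limma adjusted p = 0.0725). There the difference was 0.82, and 137 genes in all were called, against 607 with all arrays. The limma adjusted p of Trim34a ranged from 0.00101 to 0.0725 over the 14 alternatives that tested it.

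**Figure D2:**
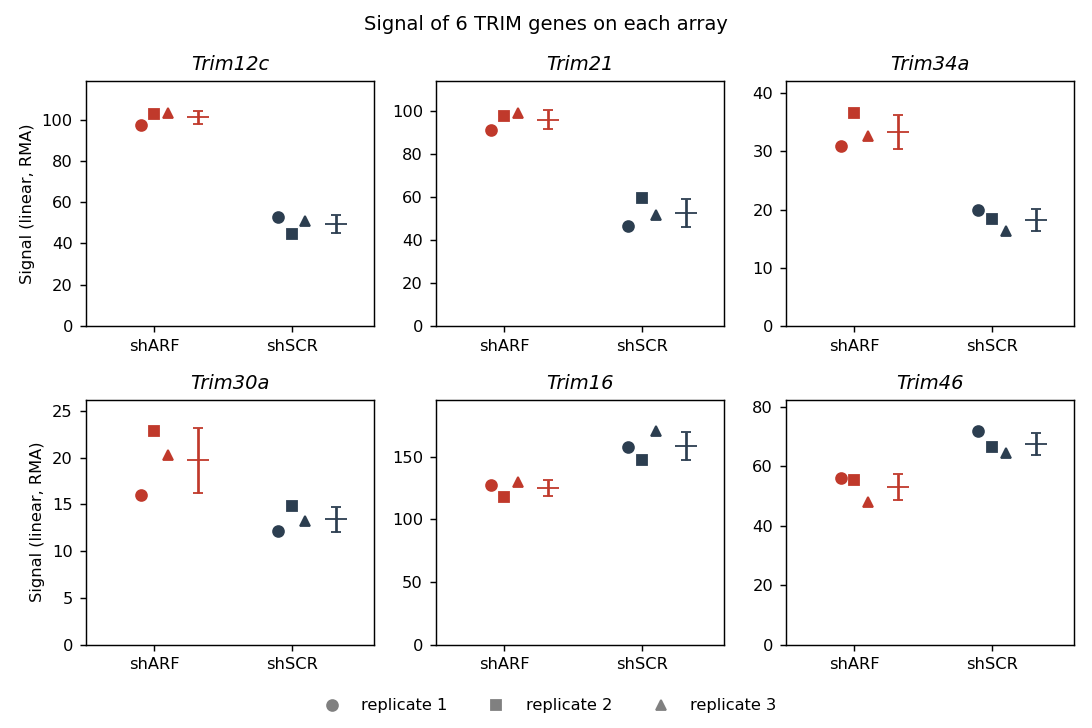
Signal on each array (linear scale, shARF left of shSCR) for 6 TRIM genes, with the mean and SD of each group beside the points. All shARF points lie above all shSCR points for Trim12c, Trim21, Trim34a and Trim30a, and below them for Trim16 and Trim46.

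Trim30a, an interferon-induced gene that in mice is known as a negative regulator of innate immune signalling, had the next largest difference. Its signals were 16, 22.8 and 20.3 in shARF, against 12.2, 14.8 and 13.3 in shSCR, where 2 of the 3 arrays were below the detection level. The groups did not overlap, yet the difference of 0.54 ± 0.138 (SE, n = 3 arrays each) with a 95% interval of 0.22 to 0.87 did not pass (limma adjusted p = 0.0851). Without shARF array 1, the lowest of its group, it passed (limma adjusted p = 0.0427), and over all alternatives the adjusted p ranged from 0.0386 to 0.210. Trim30a reached the test through its shARF arrays, as did Trim50 and Trim58, which were likewise detected on 3 shARF arrays and 1 shSCR array.

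The gene list of interferon-linked TRIM genes names 15 genes, of which 11 had a probeset of their own and 8 were tested. Of these 8, 3 were higher and none lower, and 2 had negative differences. Trim30a, 1 of the 8, passed the detection filter through its shARF arrays, so no median is set against other genes. Among the 39 tested TRIM genes outside the list none was called by limma, where 1.62% of all genes tested were higher and 2.38% lower. The list was chosen with earlier results of these data known, so this split is not a test. Trim6, which makes unanchored ubiquitin chains in interferon signalling, had signals of 19.9, 19.8 and 18.2 in shARF, against 17.0, 19.1 and 15.6 in shSCR, a difference of 0.17 ± 0.088 (SE, n = 3 arrays each). Trim14, an adaptor in mitochondrial antiviral signalling that has no RING domain, had 25.4, 21.1 and 21.8 in shARF, against 17.2, 21.2 and 22.0 in shSCR, a difference of 0.18 ± 0.115. In both genes the groups overlapped, and neither passed (limma adjusted p = 0.333 for Trim6 and 0.411 for Trim14).

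Trim26, a PRY-SPRY gene of the major histocompatibility region with a known part in interferon induction, had 84.9, 89.4 and 88.4 in shARF, against 88.4, 92.0 and 89.1 in shSCR. Trim56, an interferon-inducible ligase known for its action on the STING pathway, had 300, 275 and 327 in shARF, against 338, 336 and 275 in shSCR. Neither group stood apart in these 2 genes, whose differences were -0.04 ± 0.057 and -0.07 ± 0.105 (SE, n = 3 arrays each, limma adjusted p = 0.756 and 0.744). Trim12a, Trim30d and Trim38 of the same list were below the detection level on all 6 arrays and give no fold.

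By position, 13 of the 58 members lie on chromosome 7, the most of any chromosome. A run of 7 of them, Trim6, Trim34a, Trim12a, Trim12c, Trim30a, Trim30d and the pseudogene Trim30e-ps1, lies together, with 0, 1, 1, 3, 0 and 0 protein-coding genes between neighbours in the RefSeq order. Trim21 and Trim68 form a pair at lower coordinates, separated from each other by 7 protein-coding genes and from the run by 90. Of the 10 tested members on chromosome 7, which include Trim30a, 3 were higher, beside 1.62% of all genes tested. Of the 37 tested members on other chromosomes none was called by limma. The called genes were neighbours of uncalled ones: Trim68, known in human cells as a coactivator of the androgen receptor, had 51.5, 54.0 and 54.1 in shARF, against 54.5, 41.1 and 41.0 in shSCR. There shSCR array 1 was as high as the shARF arrays, and the difference of 0.24 ± 0.115 (SE) did not pass (limma adjusted p = 0.299).

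**Figure D3:**
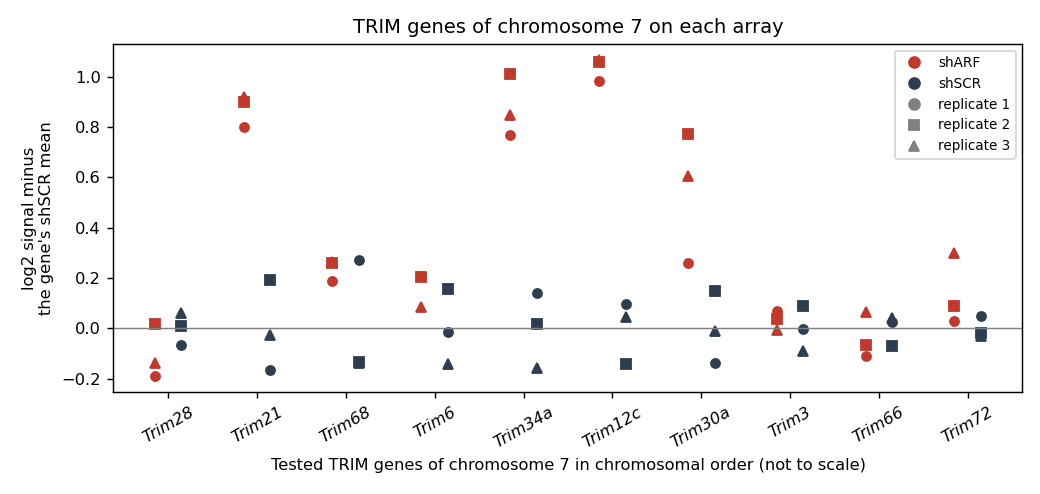
Log2 signal on each array, shown relative to the shSCR mean of the gene, for the 10 tested TRIM genes of chromosome 7 in RefSeq order (not to scale). The shARF points stand clear of the shSCR points for Trim21, Trim34a, Trim12c and Trim30a, and the groups mix for Trim68 and Trim6, which lie between Trim21 and Trim34a.

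Several genes of the chromosome 7 run have close copies, so a probe for one can pick up transcripts of another, and their separate values are uncertain in that respect. Trim12c has the close copies Trim12a and Trim5, Trim30a the other Trim30 genes, and Trim34a the copy Trim34b, which had no single-symbol probeset here. Trim12a read 8.07, 7.03 and 8.27 in shARF, against 7.16, 5.20 and 6.18 in shSCR, all below the detection level.

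Across the whole PRY-SPRY class, 23 of 29 members were tested, with 3 higher and none lower. Over all genes tested, 1.62% were higher and 2.38% lower. Trim30a, Trim50 and Trim58 of this class reached the test through their shARF arrays. The tested members ranged from -0.34 (Trim16) to 1.04 (Trim12c). The PRY-SPRY gene Trim47 had 139, 148 and 138 in shARF, against 134, 128 and 119 in shSCR. All shARF arrays were above all shSCR arrays, but the difference of 0.16 ± 0.068 (SE) did not pass (limma adjusted p = 0.255).

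Trim16 went the other way. This member, which has B-boxes but no RING domain and is known for its part in autophagy of damaged membranes, had signals of 127, 118 and 130 in shARF, against 158, 147 and 170 in shSCR. Every shARF array was below every shSCR array, and the difference was -0.34 ± 0.076 (SE) with a 95% interval of -0.52 to -0.16. It did not pass (limma adjusted p = 0.0609). It was called lower under 4 of the 15 alternatives, over which the adjusted p ranged from 0.0246 to 0.169.

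Trim46, a COS-box gene that organises microtubules at the start of axons, had 56.0, 55.2 and 48.1 in shARF, against 71.7, 66.3 and 64.4 in shSCR. The groups did not overlap, with the largest negative difference of the TRIM genes, -0.35 ± 0.081 (SE), a 95% interval of -0.54 to -0.16 and a limma adjusted p of 0.069. It was called lower under 2 of the 15 alternatives, with adjusted p from 0.0344 to 0.207. The 5 neuronal markers summed to 693 to 726 in shARF and 561 to 608 in shSCR, but they did not move together: Nefl was higher (1.26), Map2 was at 0.31 and Tubb3 at -0.52 without passing, and Snap25 and Rbfox3 were at -0.0012 and 0.05. Their part in the Trim46 value was not tested. The other 2 tested COS-box genes with a fibronectin domain, the neuronal ligases Trim9 and Trim67, had differences of 0.07 ± 0.099 and -0.10 ± 0.085, with overlapping groups.

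The PHD-bromodomain genes are the nuclear members. Trim28 encodes KAP1, the corepressor that KRAB zinc finger proteins bring to DNA, and Trim24 encodes TIF1α, a cofactor of nuclear receptors that also acts on p53. Trim28 had 523, 603 and 543 in shARF, against 569, 600 and 621 in shSCR, a difference of -0.10 ± 0.075 (SE) with a 95% interval of -0.28 to 0.07. Trim24 had 109, 98.7 and 98.0 in shARF, against 106, 106 and 98.4 in shSCR, a difference of -0.02 ± 0.070 with a 95% interval of -0.19 to 0.14. The groups overlapped in both genes, and neither passed (limma adjusted p = 0.478 for Trim28 and 0.880 for Trim24). The other 2 genes of the class, Trim33, a cofactor in SMAD signalling, and Trim66, a testis-linked relative, also gave small negative differences (-0.01 and -0.04).

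The members with the highest mean signal were, with Trim28, the genes Trim59, Trim44, Trim56 and Trim32. Trim59, a membrane-anchored member, had 541, 568 and 543 in shARF, against 562, 536 and 541 in shSCR, a difference of 0.01 ± 0.058 (SE). Trim44, which has no RING domain and is known as a deubiquitinase-like member, had 340, 402 and 361 in shARF, against 365, 374 and 397 in shSCR, a difference of -0.04 ± 0.079. The groups overlapped in both genes. Trim32, an NHL-repeat ligase whose human gene is mutated in a limb-girdle muscular dystrophy, had 246, 312 and 255 in shARF, against 284, 301 and 329 in shSCR, a difference of -0.17 ± 0.105 with overlapping groups (limma adjusted p = 0.395, n = 3 arrays each). The other NHL genes, Trim2, Trim3 and Trim71, gave 0.03 to 0.07.

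Among the remaining classes no gene was called. Trim13, a ligase anchored in the endoplasmic reticulum, had 59.7, 55.0 and 35.1 in shARF, against 56.6, 58.9 and 56.3 in shSCR. Its shARF array 3 was low, and the difference was -0.23 ± 0.185 (SE), with the widest error of the tested members, or 0.00092 without that array. The muscle genes Trim54 and Trim63 gave -0.08 and 0.02, and muscle markers summed to 156 to 165 in shARF and 153 to 160 in shSCR. Trim37 (a MATH-domain ligase of centrosomes), Trim23 (which carries an ARF-type GTPase domain, unrelated to the ARF product of Cdkn2a) and Trim45 (filamin repeat) gave -0.02 to -0.00021. Of 6 tested genes without a named carboxy-terminal domain, Trim29 had 15.96, 18.5 and 16.6 in shARF, against 14.9, 15.4 and 14.6 in shSCR, with no overlap, a difference of 0.18 ± 0.073 and a limma adjusted p of 0.221.

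For the 44 genes that did not pass, the 95% interval lay within a 2-fold change either way in all 44, and within a 1.5-fold change in 41. The 3 with wider intervals were Trim30a, Trim58 and Trim13. Missing the threshold does not show that a gene was equal in both groups. The 11 undetected members were Trim10, Trim12a, Trim15, Trim30d, Trim30e-ps1, Trim36, Trim38, Trim40, Trim42, Trim55 and Trim75. Of these, Trim42 exceeded the level on 2 shSCR arrays and Trim15 on 1 shARF array, and the other 9 on none. In bulk RNA, fewer cells with a transcript and less of it per cell cannot be told apart.

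TRIM relatives that carry other names were also read. Of 10 such genes 9 were tested, with none higher and 2 lower, beside 2.38% lower over all genes tested, and a median of 0.08 (all genes -0.01). Fsd1, a microtubule-associated protein with a coiled coil, COS box and SPRY domain like those of COS-box TRIM proteins, had signals of 72.6, 72.5 and 72.0 in shARF, against 149, 146 and 148 in shSCR. The arrays within each group were almost equal, and the difference was -1.03 ± 0.053 (SE, limma adjusted p = 0.0011, n = 3 arrays each). Mid1, the microtubule-bound ligase of Opitz syndrome, had 323, 320 and 317 in shARF, against 404, 382 and 399 in shSCR. Its difference of -0.30 ± 0.056 passed (limma adjusted p = 0.0355). Leaving out any 1 of the 6 arrays lost the call (limma adjusted p from 0.0758 to 0.122, and from 0.0067 to 0.148 over all alternatives). On leaving out 1 array, 150 to 330 genes in all were called, against 607 with all arrays. Over all alternatives the Mid1 difference was -0.33 to -0.29. Pml, the interferon-inducible organiser of nuclear bodies, gave 0.23 ± 0.112 and Mid2, the paralog of Mid1, 0.09 ± 0.074, neither of which passed (limma adjusted p = 0.294 for Pml and 0.527 for Mid2).

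**Figure D4:**
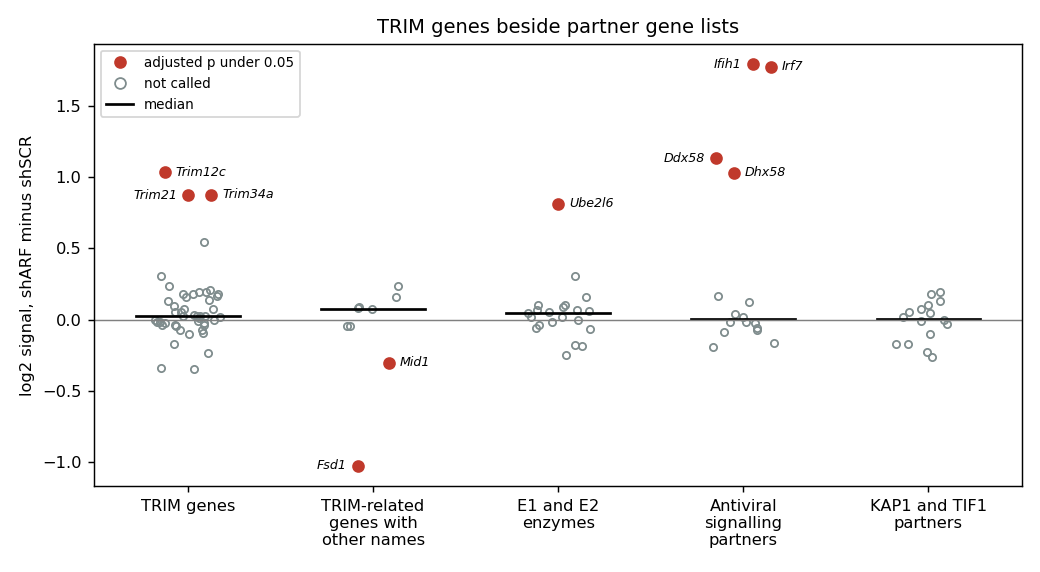
The log2 difference (shARF minus shSCR) of each tested gene in the TRIM family and in 4 further lists, with filled points for an adjusted p under 0.05 and a line at each median. Called genes are 3 of 47 TRIM genes, 2 of 9 relatives with other names and 1 of 21 genes for E1 and E2 enzymes. Also called are 4 of 16 antiviral signalling genes and none of 16 KAP1 and TIF1 partners. Over all genes tested, 4.01% were called.

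Most TRIM ligases need an E2 enzyme, and 21 of 27 listed genes for ubiquitin, its activating (E1) enzymes and E2 enzymes were tested. Those tested were E2 (Ube2) genes and the E1 gene Uba6, with no gene for ubiquitin itself. Of these, 1 was higher and none lower, beside 1.62% higher and 2.38% lower over all genes tested, and the median was 0.05. Ube2l6, the E2 enzyme for the interferon-induced modifier ISG15, had 214, 259 and 216 in shARF, against 138, 144 and 111 in shSCR, a difference of 0.81 ± 0.122 (SE, limma adjusted p = 0.0180, n = 3 arrays each). The groups did not overlap. The call was lost without shARF array 2, shSCR array 1 or shSCR array 3. Over all alternatives the limma adjusted p ranged from 0.000926 to 0.0780 and the difference from 0.70 to 0.89. Ube2e1, an E2 enzyme of the UBE2E group, had the next smallest p, with a difference of 0.31 ± 0.070 (limma adjusted p = 0.0635).

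Of 16 tested antiviral signalling genes through which several TRIM ligases act, 4 were higher and none lower in shARF, beside 1.62% higher over all genes tested, with a median of 0.0023. These were the RNA sensors Ifih1 (MDA5), Ddx58 (RIG-I) and Dhx58 (LGP2), and the transcription factor Irf7. Ifih1 had 165, 131 and 156 in shARF, against 42.1, 53.4 and 36.0 in shSCR, a difference of 1.79 ± 0.154. Irf7 had 114, 160 and 92.9 in shARF, against 28.2, 47.1 and 31.8 in shSCR, a difference of 1.77 ± 0.243. Array 2 was the highest of its group for Irf7 in both groups, and no shARF array of either gene came near the shSCR arrays. Ddx58 gave 1.13 ± 0.149 and Dhx58 1.03 ± 0.123 (SE, n = 3 arrays each, limma adjusted p = 0.0114 and 0.00894, with 0.00345 for Ifih1 and 0.0131 for Irf7). Without shSCR array 1 the calls of Irf7 and Ddx58 were lost, and without shSCR array 3 that of Irf7. Genes called in all then numbered 166 and 150, against 607 with all arrays. Over all alternatives the difference was 1.41 to 1.99 for Irf7 and 1.01 to 1.30 for Ddx58.

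None of the 16 genes listed as partners of KAP1 and the TIF1 proteins passed (limma), and the median was 0.01. Before adjustment the limma p was under 0.05 for 1 higher gene and 3 lower ones, with no share over all genes computed. The groups did not overlap in 5 of the 16 genes (31.25%), beside 28.6% of all genes tested. Cbx5, the heterochromatin protein HP1α that KAP1 binds, had 600, 610 and 606 in shARF, against 703, 725 and 755 in shSCR, a difference of -0.27 ± 0.058 (SE, limma adjusted p = 0.0557, n = 3 arrays each). Ezh2, the methyltransferase of Polycomb repressive complex PRC2, gave -0.23 ± 0.067 (limma adjusted p = 0.120). In both genes every shARF array was below every shSCR array.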

How the data were processed

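Signal intensities on a linear scale were deposited by the authors for 26851 probesets on 6 arrays. Per the submitters' processing notes, they came from Affymetrix Expression Console with the RMA algorithm. Per the labels, core probesets were used, absent and control probesets were filtered out across 12 arrays, and the authors tested differences with Significance Analysis of Microarrays, which was not run here. Versions and the genome build are not given in the sources used here.

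Probesets were named from the platform table: 21056 had 1 symbol, 1450 several and 4345 none, and only the first were used. For a gene with several probesets, the one with the highest mean signal was kept. The log2 intensities were fitted with limma 3.58.1 (R 4.3.3; lmFit, eBayes, 2 groups) over the 20310 probesets above the 25th percentile of an array on at least 3 of 6 arrays, with Benjamini-Hochberg adjustment over all of them, and the fit was tested on simulated data. The number of arrays limits the precision: the median standard error over all tested genes was 0.0815.

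Members, lists and domain classes were chosen with earlier results of these data known. Named are each called member, the interferon-linked list, the 5 tested members with the highest mean signal, the 5 with the largest difference, Trim24 and Trim28, and for other lists the called genes or the 2 with the smallest p. Further members were added for their role or position after their values were seen. The family also has 1 member that is not reported here. Alternatives were the detection filter, an offset of 16, repeated normalization, median centring and the variance model. Further ones were the probeset choice, the replicate number as a block, and leaving out arrays. For a TRIM gene, which has 1 probeset, the filter, variance model, probeset choice and block changed the adjusted p and not the difference.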

Additional observations from a re-analysis of the deposited data

Results flagged for a closer look

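A probeset outside the comparison, because it carries the symbols Trim5, Trim12c and Trim12a together, was also higher in shARF. Probeset 10566333 had signals of 82.7, 81.5 and 72.2 in shARF, against 49.8, 61.6 and 54.1 in shSCR. The difference was 0.52 ± 0.096 (SE, n = 3 arrays each, limma adjusted p = 0.0356), and the groups did not overlap. A second probeset, 10601581, with the symbols Trim5 and Trim12c, had 105, 88.8 and 84.8 in shARF, against 75.3, 75.6 and 58.4 in shSCR. Its difference of 0.42 ± 0.126 did not pass (limma adjusted p = 0.129). Both differences were smaller than that of the single-symbol probeset of Trim12c (1.04), and which of the copies each probeset read was not tested.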

How the results depend on the processing

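Trim12c and Trim21 were called higher under all 15 alternatives, and Trim34a under 13 of the 14 that tested it. The number of TRIM genes called higher was 2 to 4 over all alternatives, and 3 to 4 when 1 array was left out. The number called lower, 0 in the report, was 2 with detection at the array median or with 16 added to each signal (Trim46 and Trim16), and 1 with an intensity trend and robust settings or with the mean of all probesets (Trim16). Among TRIM relatives with other names, 1 gene (Fsd1) in place of 2 was called with no detection filter, with the replicate number as a block, without number 2 in both groups, and on leaving out any array (1 to 1). Among E1 and E2 enzyme genes, 2 were called with detection at the array median, with 16 added and with the intensity trend, and 0 without number 2 in both groups, and leaving out 1 array gave 0 to 1. Antiviral signalling calls were 2 to 4 on leaving out 1 array, the lowest without shSCR array 1. Of the KAP1 and TIF1 partners, 1 was called with detection at the array median, with 16 added and with the mean of all probesets, and 2 with the intensity trend. Over all genes the calls numbered 607 in the report and 137 to 1281 under the alternatives, 150 to 330 of them on leaving out 1 array.

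Of 40 named genes under up to 15 alternatives, 10 values changed sign, all of genes that did not pass. Without number 2 in both groups, Trim56 was at 0.0403, Trim59 at -0.0267 and Trim24 at 0.0150. Trim24 was at 0.0017 after a second quantile normalization. On leaving out 1 array, Trim59 ranged from -0.0128 to 0.0308, Trim44 from -0.111 to 0.0104, Trim24 from -0.0742 to 0.0041, Trim13 from -0.382 to 0.00092 and Trim9 from -0.00056 to 0.16. The cause of these shifts was not tested. Same-numbered arrays deviated together only weakly (correlations of 0.078, 0.052 and 0.00062 over 20310 probesets), so the numbers were not treated as pairs. With the replicate number as a block, 4 TRIM genes were called higher (Trim30a added, limma adjusted p = 0.0389) and 336 genes in all. Dim genes close to the detection level limit what can be read.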
